A study of Gossypium hirsutum with 9 samples.

Results

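Cotton ovules cultured for 5 days on 300 mM glucose were compared with ovules cultured on 50 mM glucose, the highest and lowest concentrations of the series. The members are 6 of the 9 RNA sequencing libraries, 3 at each of these concentrations, chosen by the glucose concentration in their labels. The plant was upland cotton, Gossypium hirsutum TM-1, and the ovules received no other treatment that the labels name. The 3 remaining libraries, from ovules on 150 mM glucose, took no part in the test and are given beside some results. Whether the 3 libraries of a concentration come from separate cultures is not stated in the labels, so a p-value here weighs a difference against a spread that may be technical. The samples include no osmotic control, so glucose as a sugar and the osmolarity of the medium cannot be told apart.

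Each cotton fibre is a single elongated cell of the seed coat, and cultured ovules take their sugar from the medium. Glucose serves plant cells as fuel, as the source of carbon for cellulose and other wall polymers, and as a signal that changes gene activity. The series asks how glucose acts on fibre elongation together with brassinosteroid, a plant steroid hormone that promotes cell expansion. The labels name no separation of fibre from the rest of the ovule. In such whole-tissue samples fewer cells of a type and less RNA per cell cannot be told apart.

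The deposited values are FPKM, reads divided by gene length and by a size term of the library. Whole reads were recovered from these values and came to 18331011 to 19140297 per library at 50 mM and 17803779 to 18585425 at 300 mM. Replicate 1 at 300 mM stood somewhat apart. It correlated with the libraries at 150 mM at 0.930 to 0.959, as closely as with the other 2 of its own group at 0.945 and 0.953. Its correlation over genes with the 50 mM libraries was 0.84 to 0.859, against 0.876 to 0.899 for the other 2 libraries of its group. Within groups the correlation was 0.971 to 0.979 at 50 mM and 0.945 to 0.959 at 300 mM. The gene IDs of the files could not be joined to names (0 matches in a table of 99454 RefSeq genes), so no gene has a function or a sequence here. Genes are therefore described by level, by size of change and by the chromosome in their ID, and no more than 2 rising and 2 falling IDs are named. For the same reason the tissue label could not be checked against marker genes.

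Transcript levels at the ends of the glucose range differed in many genes, in both directions. Of the 49415 genes that reached an FPKM of 1 in 3 or more of the 6 libraries, 14297 (28.9%) passed the test at an adjusted p of 0.05 (limma on log2(FPKM + 0.5), Benjamini-Hochberg). There were 6774 genes higher (13.7%) and 7523 lower (15.2%) at 300 mM. The median FPKM of the rising genes was 5.48 at 50 mM and 11.1 at 300 mM, and that of the falling genes 16.1 and 8.19. These medians were taken separately at each concentration. The median change of a gene on the log2 scale was 0.83 for the genes that rose and -0.94 for those that fell, with a median of 0.0019 over all genes tested.

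The split between rising and falling genes depended on the scaling of the libraries. The library-size term of the authors was 0.984 to 1.0 times the recovered reads at 50 mM and 1.07 to 1.1 times at 300 mM. Scaling to recovered reads made 62.8% of the calls higher at 300 mM in place of 47.4%, and the median change of all genes moved to 0.12. With upper-quartile scaling the share was 56.3%, and with equal summed FPKM it was 61.9%. Median-ratio scaling, at 46.9%, left it near the reported value. So did limma-voom on recovered reads, at 47.1%, but that fit also took its library sizes from median ratios and is no separate scaling. The count of calls dropped most when a 50 mM library was left out, and why was not tested. With the same genes tested it was 8768, 9689 and 9423 without replicate 1, 2 or 3 at 50 mM, and 11769, 11210 and 14355 without replicate 1, 2 or 3 at 300 mM. The 2 groups did not overlap in 46.7% of the tested genes, and 20480 genes had an unadjusted p under 0.05.

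Large changes were more often falls. At least 2-fold changes were called for 2572 rising genes (5.2% of those tested) and 3446 falling genes (6.97%). At least 4-fold changes were called for 370 rising and 831 falling genes, and at least 8-fold changes for 76 and 173. The excess of falls at 4-fold and 8-fold held under each scaling. Scaled to recovered reads, 440 genes rose and 702 fell at least 4-fold, and 86 rose and 149 fell at least 8-fold. At 2-fold it did not hold, with 3238 rising and 2854 falling genes under that scaling. Changes of 32-fold or more were few on this scale, with 2 rising and 5 falling genes.

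Counting calls of any size, the share of genes that changed grew with transcript level, and the part that fell grew most. Genes were divided by their mean FPKM over the 6 libraries, which favours neither group. Among 6068 genes under an FPKM of 2, 20.9% were called. The share was 24.5% from 2 to 5, 30.7% from 10 to 20, 44.8% from 50 to 100, 47.3% from 100 to 500 and 55.7% among the 115 genes of 500 and more, against 28.9% of all genes. The part called higher stayed between 11.3% and 19.4% in all 8 classes. The part called lower went from 9.64% in the lowest class to 30.5% from 100 to 500 and to 46 of 115 genes in the highest. With neither a mean trend nor robust variance in the fit, 26.7% of genes under 5 and 26.6% from 5 to 50 were called, in place of 23.3% and 30.3%, so the rise over the lower classes rested on the model of the variance. At 50 and more that fit called 43.1%, against 46.0%. Scaling to recovered reads turned the balance at an FPKM of 50 and more, where 640 genes rose and 962 fell but 912 rose and 828 fell under that scaling. From 5 to 50 the balance turned as well, from 3858 rising and 4808 falling genes to 5941 and 3566. Upper-quartile scaling gave 4893 and 4014 there. The shares by direction given above are thus those of the reported scaling.

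**Figure D1:**
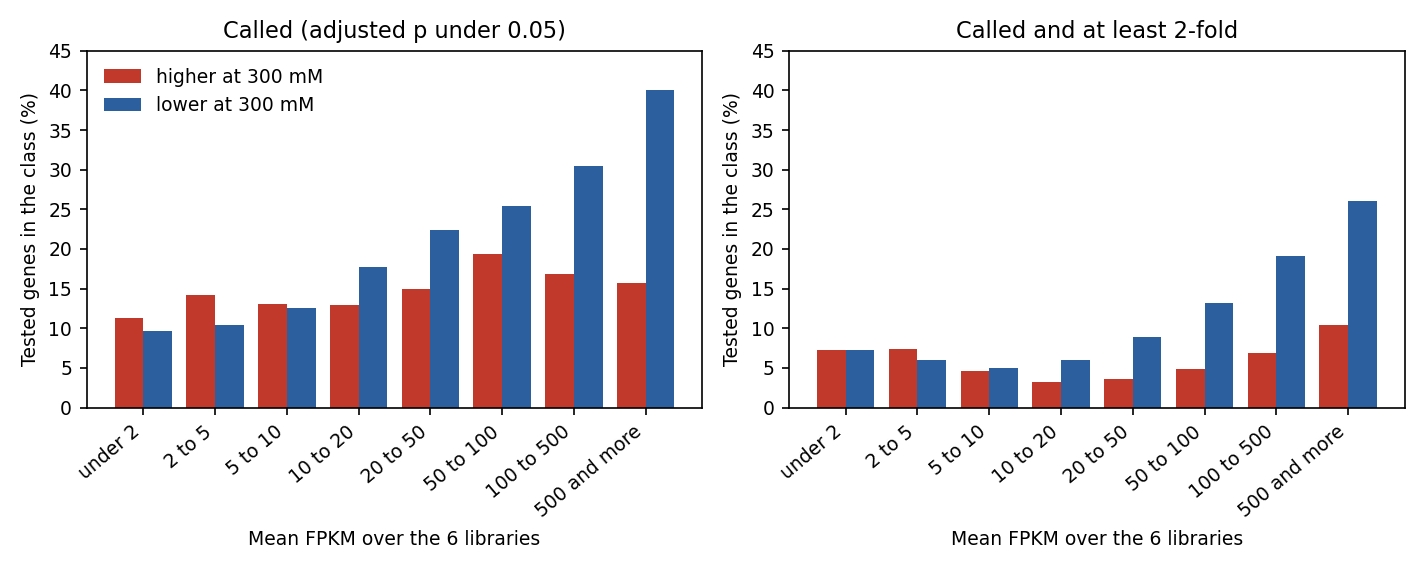
Share of tested genes called at 300 against 50 mM glucose (vertical axis, %) in 8 classes of mean FPKM over the 6 libraries (horizontal axis), for all calls on the left and for calls of at least 2-fold on the right. Red bars are genes higher and blue bars genes lower at 300 mM; the blue bars grow from 9.64% to 30.5% and then to 46 of 115 genes on the left, while the red bars stay between 11.3% and 19.4%.

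Changes of at least 2-fold did not grow steadily with level. Rises of this size were called for 7.28% of genes under an FPKM of 2, 3.17% from 10 to 20 and 10.4% at 500 and more. Falls of this size were called for 7.23% of genes under 2, 4.93% from 5 to 10 and 26.1% at 500 and more. The median size of change over all genes, called or not, had the same low middle, at 0.42 under 2, 0.28 from 10 to 20 and 0.71 at 500 and more on the log2 scale.

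In the 1316 genes with a mean FPKM of at least 100, at least 2-fold changes were called for 94 rising and 259 falling genes. That excess of falls held with scaling to recovered reads (114 rising, 221 falling) and without replicate 1 at 300 mM (95 rising, 239 falling, the same genes tested). Among genes under an FPKM of 5 rises were the more frequent, with 2276 rising and 1753 falling genes (56.5% higher). With the same genes tested and 1 library left out, 51.4% to 58.1% of the calls in this class were higher. With the filter applied again, the share was 64.7% to 68.1% without a 50 mM library. Without a 300 mM library it was 44.2% to 49.3%, so falls were then the more frequent. Applied again, the filter favours the group left with 3 libraries, so the direction in this class depended on how the filter was applied.

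The precision of the test also moved with level. The median standard error of the log2 change was 0.26 under an FPKM of 2, where the median gene had 28.5 reads per library, 0.13 from 20 to 50, with 526 reads, and 0.21 at 500 and more, with 8696 reads. Of the genes called, 95% had a log2 change beyond 0.74 in the lowest class and beyond 0.38 from 20 to 50. In the lowest class, 1057 of the genes entered through 1 group alone, with no library of the other group at an FPKM of 1. Over all levels 677 genes entered only through the 300 mM libraries and 597 only through those at 50 mM. Such genes had to differ, and 523 and 512 of them were called. Among the 43297 genes at an FPKM of at least 1 in all 6 libraries the share called was 28.0%, with 5701 rising and 6405 falling.

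The changed genes held a large and shifting part of the transcript pool. The 7523 falling genes made up 33.0%, 32.7% and 32.3% of the summed FPKM of the 3 libraries at 50 mM and 14.8%, 15.7% and 16.6% at 300 mM. The 6774 rising genes made up 9.73%, 10.1% and 10.02% at 50 mM and 23.7%, 21.1% and 20.6% at 300 mM. The libraries at 150 mM, which took no part in choosing these genes, lay between the other groups, at 20.1% to 23.3% for falling and 16.8% to 19.4% for rising genes. Picking genes for a gap between 50 and 300 mM favours such a middle place. In recovered reads the falling genes went from 32.2% ± 0.383 (SD, n = 3) to 16.6% ± 1.07. These are shares within a library, but the genes were chosen on the same 6 libraries, so they describe the size of the shift and carry no test.

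**Figure D2:**
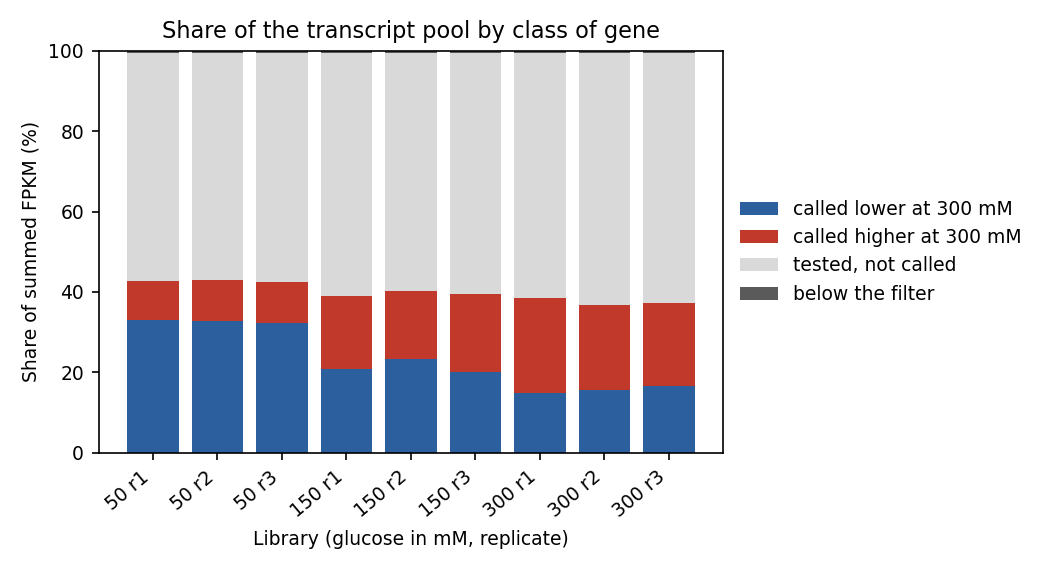
Share of the summed FPKM of each library (vertical axis, %) held by genes called lower (blue), called higher (red), tested but not called (light grey) and below the filter (dark grey), for the 9 libraries by glucose concentration and replicate. Genes called lower hold 32.3% to 33.0% at 50 mM and 14.8% to 16.6% at 300 mM.

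The summed FPKM that falling genes lost was spread over many genes. Of that difference 9.18% lay in 10 genes and 32.5% in 100 genes, and 327 genes together held 50% of it. Of the difference gained by rising genes, 17.7% lay in 10 genes and 35.4% in 100, and 303 genes held 50%. The number of genes at an FPKM of at least 1 was 48205 ± 332 (SD, n = 3) at 50 mM and 48533 ± 217 at 300 mM (exact permutation test, two-sided p = 0.2, adjusted p = 0.32). The 1000 most abundant genes of each library held 33.2% ± 1.14 of the summed FPKM at 50 mM and 30.8% ± 0.951 at 300 mM (exact permutation test, two-sided p = 0.1, adjusted p = 0.267). With 3 against 3 libraries 0.1 is the smallest p this test can give, and the p-values were adjusted over 8 such measures. The 10 most abundant genes held 3.45% ± 0.559 and 4.2% ± 0.29 (exact permutation p = 0.3).

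The order of the most abundant genes changed. Of the 10 genes with the highest mean FPKM at 50 mM, 5 were also among the 10 at 300 mM. Of the 100 most abundant genes 64 were shared, and of the 500 most abundant 315. Any pair of libraries within the 50 mM group shared 91 to 93 of its 100 most abundant genes, and any pair within the 300 mM group 80 to 84. A library at 50 mM and another at 300 mM shared 55 to 69. Of the 10 leading genes at 50 mM, 5 fell and 1 rose by the test. Of the 10 leading genes at 300 mM, 3 rose and 0 fell. Each list was picked for high values in 1 group of the libraries tested, which favours calls in these directions. Among all tested genes with a mean FPKM of 500 and more, 55.7% were called.

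The leading gene at 300 mM, an ID of chromosome D04, had an FPKM of 3847, 7328 and 3390 at 50 mM and of 10840, 8399 and 15591 at 300 mM. The groups did not overlap, although replicate 2 at 50 mM came close to the lowest 300 mM library. Its log2 change was 1.30 (SE 0.356, limma adjusted p = 0.0314). The call was lost without replicate 1 or 3 of either group, with an adjusted p of up to 0.109, and with the replicate number as a block, at 0.0766. The leading gene at 50 mM, an ID of chromosome A09, was measured at 4851, 6632 and 5462 and at 4034, 3995 and 4269, in the same order. All its 300 mM values were lower, and its log2 change of -0.45 did not pass (limma adjusted p = 0.11).

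The gene that stood 10th at 50 mM, an ID of chromosome D12, dropped to rank 186. Its FPKM was 2597, 3383 and 2119 at 50 mM and 158, 397 and 378.8 at 300 mM. The lowest library at 50 mM was far above the highest at 300 mM, and the fall was -3.20 on the log2 scale (SE 0.37, limma adjusted p = 0.00142). In the other direction an ID of chromosome D04 moved from rank 220 to rank 6, with 140, 603.5 and 278 at 50 mM and 3600, 1629 and 2390 at 300 mM. Replicate 2 was the highest library at 50 mM for this gene and replicate 1 the highest at 300 mM. Its rise was 3.07 (SE 0.523, limma adjusted p = 0.00548).

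Among genes with a mean FPKM of at least 100, 11 rose and 21 fell at least 8-fold. Of these 32 genes, 31 were called under all 19 alternatives of scaling, filter, model and libraries, those with the same genes kept not counted. The exception, a falling ID of chromosome A02, lost its call with limma-voom and without any 1 of the 50 mM libraries. In 10 of the 11 rising genes the highest library at 300 mM was replicate 1, and in 9 the highest at 50 mM was replicate 2. At 150 mM the mean of all 11 rising genes and of 15 of the 21 falling genes lay between the means of the other groups. Over all genes called, this held for 63.3% of those that rose and 63.9% of those that fell. Genes picked for a wide gap leave more room between the groups, and no test was made.

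Gohir.D11G300400.v2.1 (coding length 549 bases) had the largest rise of these. Its FPKM was 0.682, 12.9 and 8.31 in the libraries at 50 mM, or 7, 133 and 84 reads, and 1409, 378.7 and 560.3 at 300 mM. Every 300 mM library was far above every 50 mM library, and the spread within each group was wide. The means were 7.28 ± 6.15 and 782.7 ± 550 (SD, n = 3), a ratio of 107.5, and its change on the log2 scale was 7.01 (SE 0.897, limma adjusted p = 0.00198). Leaving out replicate 1 at 50 mM gave 5.95 and leaving out replicate 2 there gave 7.70, so single libraries moved this fold by more than 1.5 times. At 150 mM it was already at 389.5, 279.2 and 443.9.

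Gohir.A09G089100.v2.1 (coding length 1755 bases) had the largest fall. The 50 mM libraries held 232.4, 353.5 and 263.5 and the 300 mM libraries 9.06, 6.62 and 12.3. All 3 libraries at 300 mM were low and close together. The mean went from 283.1 ± 62.9 to 9.32 ± 2.85 (SD, n = 3), which was 30.4-fold lower, or -4.87 on the log2 scale (SE 0.242, limma adjusted p = 0.000209). At 150 mM the values were 9.9, 4.88 and 12.3, as low as at 300 mM.

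**Figure D3:**
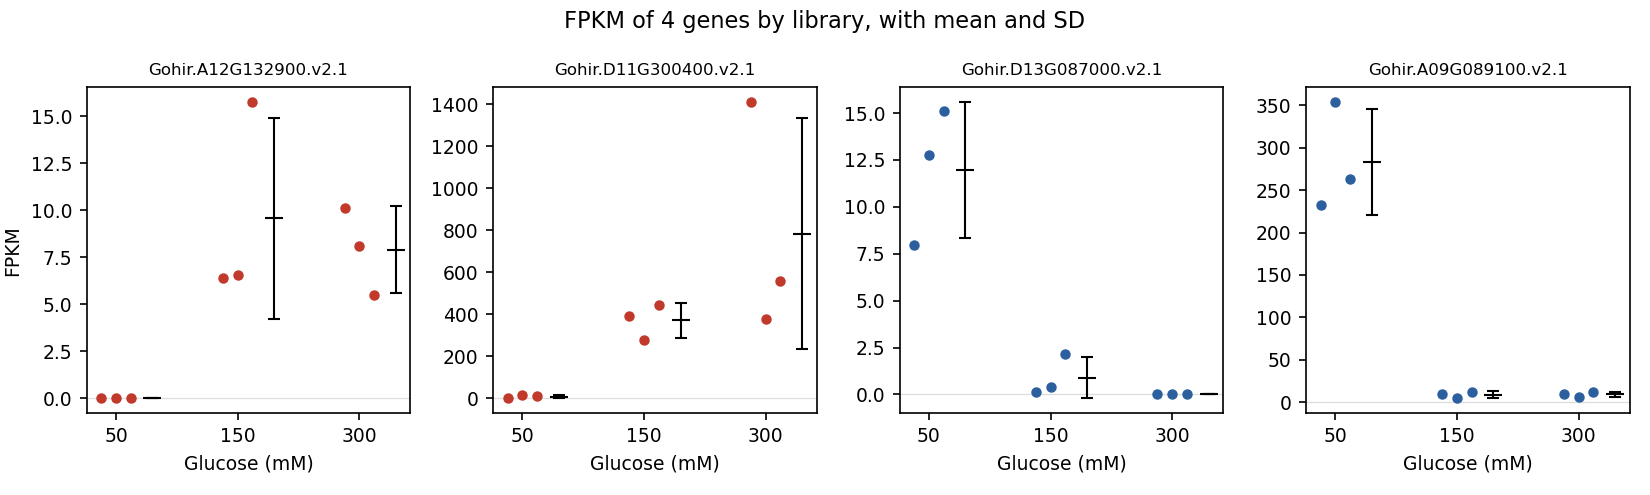
FPKM (vertical axis, linear and separate for each gene) of 4 genes in each library at 50, 150 and 300 mM glucose (horizontal axis). Points are libraries, and the black mark beside them is the mean with its SD (n = 3); the red genes are higher and the blue genes lower at 300 mM, and 1 library of Gohir.D11G300400.v2.1 reaches 1409 at 300 mM while the other 2 are at 378.7 and 560.3.

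Complete switching was rare and confined to genes of low level in these 6 libraries. A gene was counted as switched when it was listed at 0 in all 3 libraries of 1 group and at an FPKM of at least 1 in all 3 of the other. Only 4 genes were switched on at 300 mM and 10 were switched off, out of 80970 rows. All 14 were called, as this rule makes them differ, so their calls support nothing further. The 4 switched on had means of 1.99 to 7.9 at 300 mM, and the 10 switched off had means of 1.38 to 11.9 at 50 mM. With an on limit of 10 in place of 1 there were 0 in either direction.

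Many switched genes were short and rested on few reads. Their lengths ran from 114 to 1311 bases. A switched-on gene had 6 to 186 reads in a library at 300 mM, and a switched-off gene 5 to 272 reads in a library at 50 mM. Taking 3 reads over the 3 libraries as the limit that a count of 0 allows, and the reads of the other group as counted, the switched-on genes were at least 10.3-fold to at least 101.2-fold higher at 300 mM. The switched-off genes were at least 7.09-fold to at least 231.5-fold lower. Reads carry no molecular identifiers here, so the limit of 3 reads covers counting error of the 0 only.

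Gohir.A12G132900.v2.1 (coding length 183 bases) reached the highest level among the switched-on genes. It had 0 reads in each 50 mM library and 37, 29 and 20 reads at 300 mM, an FPKM of 10.1, 8.1 and 5.47 with a mean of 7.9 ± 2.32 (SD, n = 3). The summed 86 reads at 300 mM have a 95% counting interval of 68.8 to 106.2 (exact Poisson). Taken as counted, they put the gene at least 27.0-fold higher there. At 150 mM it was present in every library, at 6.39, 6.56 and 15.7. Its log2(FPKM + 0.5) change was 4.03 (SE 0.247, limma adjusted p = 0.000251). The gene was picked for this gap, so the p-value adds no support. The size rested on the pseudocount, at 6.28 with 0.1 and 3.12 with 1.

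Gohir.D13G087000.v2.1 (coding length 978 bases) was the most abundant of the switched-off genes and one of the few well covered by reads. It had 146, 235 and 272 reads at 50 mM and 0 in each library at 300 mM. The FPKM at 50 mM was 7.98, 12.8 and 15.1, with a mean of 11.9 ± 3.63 (SD, n = 3), so the gene was at least 231.5-fold lower at 300 mM. At 150 mM the libraries held 3, 7 and 41 reads, an FPKM of 0.156, 0.39 and 2.16. Its log2(FPKM + 0.5) change was -4.59 (SE 0.25, limma adjusted p = 0.000209). Here too the gene was picked for the gap, and the p-value adds no support. With a pseudocount of 0.1 the change was -6.86, and with 1 it was -3.65.

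**Figure D4:**
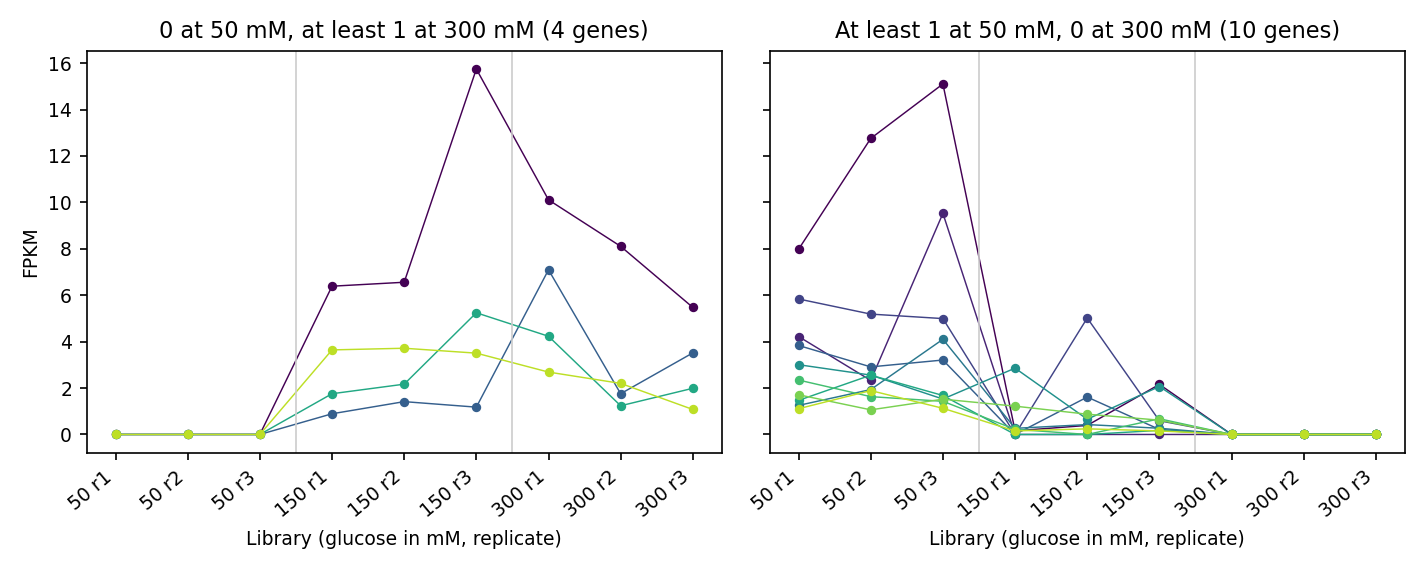
FPKM (vertical axis) of the 4 genes switched on (left) and the 10 switched off (right) at 300 mM in each of the 9 libraries (horizontal axis: glucose in mM and replicate). A line joins the points of 1 gene and implies no order among replicates; the switched-on genes are above 0 in all 3 libraries at 150 mM, and 5 of the switched-off genes are too.

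At 150 mM all 4 switched-on genes were above 0 in every library, and 3 of them had a higher mean there than at 300 mM. Of the 10 switched-off genes, 5 were above 0 in every 150 mM library, 1 was at 0 in all 3, and 0 had an FPKM of at least 1 in all 3. The wider class of near switches gave larger numbers. With an off limit of FPKM under 0.5, 132 genes were switched on and 175 off. Of the 132, 62 (47.0%) were already at an FPKM of at least 1 in all 3 libraries at 150 mM and 6 (4.55%) were under 0.5 in all 3. Of the 175, 58 (33.1%) were already under 0.5 in all 3 and 16 (9.14%) still at 1 or more in all 3. With an on limit of FPKM 2 in both uses, 6 of 32 switched-on genes (18.8%) were on in all 3 libraries at 150 mM, and 22 of 59 switched-off genes (37.3%) were off in all 3. The share already on thus depended on the on limit, and no test was made between the directions.

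Near-switched genes were also of low level. The 132 switched on had a median of 2.13 at 300 mM and a highest mean of 20.5, and the 175 switched off a median of 2.1 at 50 mM and a highest mean of 17.5. With an off limit of FPKM under 0.1 there were 12 and 19 genes. Detection by itself was scattered. Of 16180 rows at 0 in all 3 libraries at 50 mM, 13898 were also at 0 in all 3 at 300 mM, 1509 were above 0 in 1 library there and 242 in all 3. Those 242 rows had a median of 3.67 reads per library. In the reverse direction 306 rows were at 0 in all 3 at 300 mM and above 0 in all 3 at 50 mM, with a median of 2.67 reads.

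Libraries at 300 mM differed more among themselves than those at 50 mM. The median SD of log2(FPKM + 0.5) over tested genes was 0.157 at 50 mM and 0.216 at 300 mM, and 64.7% of genes had the larger SD at 300 mM. Taken in pairs, the libraries at 300 mM gave 0.163 to 0.192 and those at 50 mM 0.117 to 0.132, so every pair at 300 mM was above every pair at 50 mM. The gap widened with level. The SD at 300 mM was 1.16 times that at 50 mM under an FPKM of 2 and 1.96 times at 500 and more. Replicate 1 lay farthest from the 50 mM group in 51.3% of the genes that rose and 50.2% of those that fell. Between replicates 2 and 3 at 300 mM the median SD was 0.173, above the 0.132 of the widest pair at 50 mM.

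**Figure D5:**
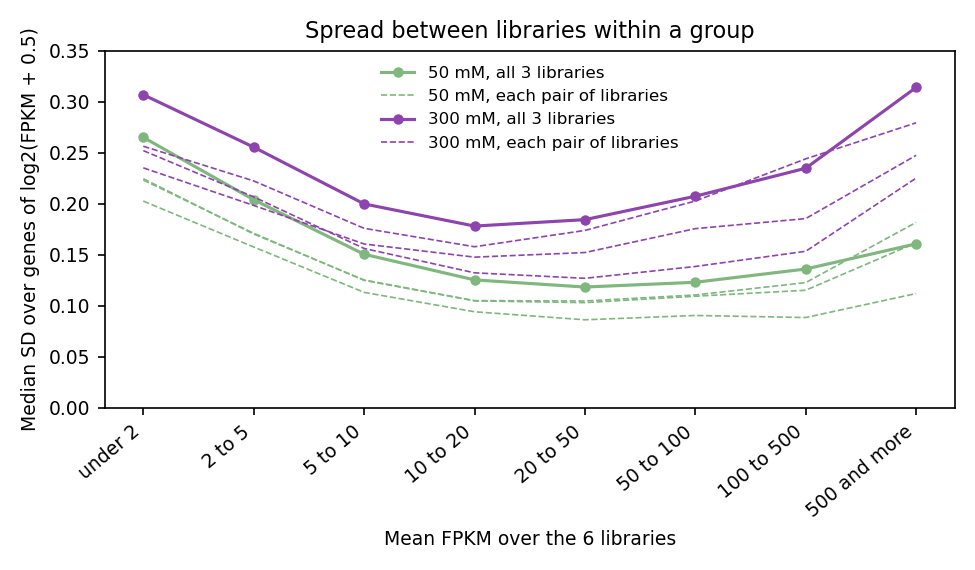
Median over genes of the SD of log2(FPKM + 0.5) between libraries (vertical axis) by class of mean FPKM over the 6 libraries (horizontal axis), at 50 mM (green) and 300 mM (purple). Solid lines with points use all 3 libraries of a group and dashed lines each pair of them; at 500 and more the 3 libraries give 0.161 at 50 mM and 0.314 at 300 mM.

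The A and D chromosomes of upland cotton descend from different ancestral species, and both sets held calls. In the A subgenome 6756 of 22432 tested genes (30.1%) were called, 3172 higher and 3584 lower. In the D subgenome 6960 of 23125 (30.1%) were called, 3337 higher and 3623 lower. The handling of reads shared by near-identical A and D copies was not given in the sources used here, so the values of such pairs are uncertain. Of the 32 abundant genes changed at least 8-fold, 8 formed 4 pairs on A and D chromosomes of the same number with coding lengths within 3 bases. One pair, on A02 and D02 with 2301 bases each, had an FPKM of 12.8 ± 1.97 and 10.6 ± 2.49 at 50 mM and of 228.7 ± 74.3 and 243.8 ± 83.1 at 300 mM (SD, n = 3). Another on the same chromosomes, with 876 bases each, fell from 1019 ± 65.7 and 610.3 ± 46.2 to 42.4 ± 24.9 and 65.9 ± 15.3. A pair on A11 and D11, with 549 bases each, was less alike. Its FPKM at 50 mM was 91.8 ± 85.8 and 7.28 ± 6.15, and its rise 4.24 and 7.01 on the log2 scale. How often lengths match in this way without a common origin was not tested.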

How the data were processed

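The authors deposited FPKM values for 80970 rows per library, with HISAT2 and featureCounts 1.5.0-p3 named in the submitters' processing notes. That the values are FPKM follows from the values themselves, and the genome build, annotation and library-size term were not given in the sources used here. Whole reads were recovered from whole-number ratios within each row (tolerance 0.0001 reads), and all 68279 rows above 0 gave whole reads. A read in a gene of 1000 bases was worth an FPKM of 0.05 to 0.0543 in the 6 libraries compared. Rows above 0 in few libraries can have a wrong length, and so too few reads.

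The 6 libraries were fitted with limma 3.58.1 (mean trend, robust variance, statmod 1.5.0, R 4.3.3) on log2(FPKM + 0.5), for genes that reached an FPKM of 1 in 3 or more of them, with glucose as the only term. P-values are two-sided and adjusted by Benjamini-Hochberg over all 49415 genes. Fold changes on this scale understate the change of genes near 0. The fit and the recovery of reads were tested on simulated data. Named genes were, in each direction, the switched gene with the highest mean in its on group, and the gene with the largest change among called genes with a mean FPKM of at least 100 and no overlap between groups. Other genes were described after their values were seen. No pair of libraries agreed within sampling noise (chi-square per degree of freedom 4.61 to 18.0). The comparison, rules and classes were chosen with earlier results of these data known. Alternatives covered pseudocounts, filters, scalings, limma-voom on recovered reads, all 9 libraries, a replicate block, a stricter threshold and leaving out each library, with the filter applied again or, as added after seeing the data, with the same genes.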

Additional observations from a re-analysis of the deposited data

How the results depend on the processing

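No gene called both in an alternative and in the reported fit changed direction. The count of calls stayed within 1.5 times 14297 under the other pseudocounts, filters, scalings and models, at 10995 to 16276. At an adjusted p of 0.01 there were 6512 calls, 2838 higher and 3674 lower, or 9.2% of genes under an FPKM of 5, 14.0% from 5 to 50 and 26.4% at 50 and more. With no filter 13.2% of genes under 5 were called. With an FPKM of at least 5 in 3 libraries it was 54.7%, because a gene of low mean then enters mostly by differing, and 1434 genes rose at least 2-fold. Leaving out each library, with the filter of 3 libraries applied again to the remaining 5, gave 8300 to 13822 calls, 4052 to 6097 higher and 4248 to 7725 lower. The shares called were then 12.1% to 19.98% under 5, 18.3% to 30.9% from 5 to 50 and 31.6% to 50.3% at 50 and more. At least 2-fold changes numbered 1912 to 2482 rises and 2494 to 3758 falls. That filter favours the group left with 3 libraries. With the same genes tested, an alternative chosen after seeing the data, there were 8768 to 14355 calls, 4110 to 6593 higher and 4658 to 7762 lower, with 2253 to 2756 rises and 2867 to 3778 falls of at least 2-fold. The shares called were then 13.6% to 21.5%, 18.5% to 31.03% and 32.0% to 50.4% in the same classes.

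Switched genes numbered 12 on and 19 off with off under 0.1, and 132 and 175 with off under 0.5. They were 1 and 4 with on at 2, and 1 and 1 with on at 5. With on set at 10 or more reads in each library, 8 were on and 7 off. The excess of genes switched off thus depended on the on limit. Without each library in turn they were 5 to 18 on and 12 to 47 off, where a group of 2 meets the rule more easily. The share of the 10 most abundant genes differed by 0.27 percentage points in recovered reads against 0.74 in FPKM, and by 0.57 to 1.06 without each library. For the 100 and 1000 most abundant these ranges were -1.47 to -0.351 and -2.92 to -1.73. The median SD at 300 minus 50 mM was 0.0058 to 0.099, where a group of 2 is compared with a group of 3.

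Replicate numbers are shared by the groups, and deviations of same-numbered libraries from their group mean correlated at -0.14, 0.087 and -0.13. The highest values, 0.194 and 0.16, lay between differently numbered libraries. Deviations within a group sum to 0 and are tied together, so this check shows no pairing by number but cannot exclude a shared culture or batch. With the replicate block 10995 genes were called.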

Other observations

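Coding length bore little on the share of Gohir genes called, except at the ends. It was 21.9% of 3540 genes under 300 bases, 30.6% to 32.0% in the 3 classes from 300 to 2400 bases, and 26.4% of 4730 genes from 2400 bases. Falls of at least 2-fold outnumbered rises in all 4 classes under 2400 bases, with 263 against 152 under 300 bases, 663 against 522 from 300 to 600, 1313 against 822 from 600 to 1200 and 955 against 763 from 1200 to 2400. In the longest genes rises were the more frequent, with 248 against 148 falls. Over all tested genes the 2-fold excess of falls turned with scaling to recovered reads (3238 rises, 2854 falls). That scaling was not repeated by length. The median standard error went from 0.25 in the shortest to 0.14 in the longest genes, and no test was made between lengths.

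Of the loci numbered outside the Gohir naming, 569 of 3768 tested (15.1%) were called, 259 higher and 310 lower. Of 90 tested genes on scaffolds, 12 were called (13.3%).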
